A study of Mus musculus with 1699 samples.

Results

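The 8 genes described here make, carry or answer retinoic acid: the enzymes Aldh1a1 and Dhrs3, the binding proteins Crabp1 and Crabp2, and the receptors Rara, Rarb, Rxra and Rxrg. They were taken as a named list, 8 of the 39468 gene entries measured, and all 8 have an entry. Retinoic acid is made from vitamin A by oxidation of retinol to retinaldehyde and of retinaldehyde to the acid. The second step is carried out by the ALDH1A enzymes, while DHRS3 works the other way and reduces retinaldehyde to retinol. CRABP proteins bind retinoic acid in the cytoplasm, CYP26 enzymes break it down, and in the nucleus it binds RAR proteins, which act on DNA in pairs with an RXR. In the midbrain ALDH1A1 is best known as the mark of a ventral group of dopamine neurons in the substantia nigra, where it also clears the aldehyde formed from dopamine, and an RXR can pair there with Nr4a2, a receptor that dopamine neurons need.

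Single cells from the ventral midbrain of mice were sorted for GFP and sequenced with Smart-seq2, a full-length method that reads each sorted cell in its own well. Pitx3eGFP/wt mice, which carry eGFP in place of 1 Pitx3 allele and keep the other, were taken at embryonic days 13.5, 15.5 and 18.5 (E13.5, E15.5, E18.5) and at postnatal days 1, 7 and 90 (P1, P7, P90). Pitx3eGFP/eGFP mice, which carry eGFP in both alleles and so lack Pitx3, a transcription factor of midbrain dopamine neurons, were taken at E13.5 and P1. All animals therefore carry the reporter, the sort selects for eGFP made from the Pitx3 locus but also held cells with glial markers, counted below, and no animal is named for any cell.

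Of 1699 cells, 1649 passed the limits on reads and detected genes. Cells in which at least 3 of 10 oligodendrocyte lineage genes had an RPKM over 10 were left out, which kept 1527 cells, 1178 of them Pitx3eGFP/wt and the others Pitx3eGFP/eGFP. They had 100007 to 8634201 reads on genes each. RPKM scales the reads on a gene to its length and to all reads of the cell, so levels of different genes can be set side by side. A cell is counted as carrying a gene when its RPKM is over 10, and a level over 150 is called high. Because no animal is named, each stage and genotype is 1 sample, no test was made, and the 95% intervals given in brackets (Clopper-Pearson, exact, where a share stands alone, and Newcombe where 2 shares are subtracted) hold the error of counting and nothing else. The 3 embryonic stages shared a dissociation kit, P1 and P7 shared another and P90 had its own, so kit and stage cannot be told apart between these sets. Among Pitx3eGFP/wt cells, spike-in RNA was added only at E18.5, P1 (part of the cells) and P90, so it is also mixed with stage. Plates are named for some cells only, and no named plate holds more than 1 stage. A change in the share of cells also cannot be told apart from a change in which cells were caught. The study judges groups with high Slc6a3, the dopamine transporter gene, to be underrepresented among its sequenced cells, by comparison with tissue sections.

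The labels were checked on Pitx3, eGFP and markers. Pitx3 had a mean RPKM of 416 in Pitx3eGFP/wt and 18.8 in Pitx3eGFP/eGFP cells at E13.5, and of 98.5 and 8.02 at P1, while eGFP went the other way, 323.02 and 726 at E13.5 and 112.3 and 192.5 at P1. Th was over 10 in 68.6% and 74.4% of Pitx3eGFP/wt cells at E13.5 and P1. At least 4 of 5 neuron markers were over 10 in 65.5% of the cells at P7 (39 of 65 without the cells found under both P1 and P7, described next) and in 87.2% to 99.1% at the other stages. Astrocyte markers (Aqp4, Gfap, Aldh1l1, Slc1a3, Gja1, Agt) were part of the kept cells too: at least 3 of these 6 were over 10 in 0, 1, 3, 24, 35 and 0 Pitx3eGFP/wt cells from E13.5 to P90, and in 22 Pitx3eGFP/eGFP cells at P1. Where these cells carry a result it is also given without them, except in the rankings by correlation.

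Some cells were found under 2 ages. When each cell was compared with every other over 13733 entries, 57 pairs had a Pearson correlation of log2 levels of 0.953 to 0.992, and no other pair was above 0.822. Each of the 57 joined a P1 cell to a P7 cell with the same number in its title, whereas the 52 remaining numbers used at both ages joined unlike cells (at most 0.567). Such a pair was read as a single cell deposited with 2 labels, and the labels do not tell which age is right. All 1699 cells had distinct reads, so the 2 records of a pair were alike but not identical. Of the kept cells, 16.4% at P1 and 40.9% at P7 belong to a pair, which leaves 65 P7 cells of a single age. Values below follow the labels. The main ones of P7 and P1 are also given without these cells, and counts over several stages hold them at each age unless said otherwise. Counted once means under P1 alone, which left 1133 Pitx3eGFP/wt cells.

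The receptors of this list bind DNA as pairs on 2 copies of a 6-base unit in the same direction. The unit AGGTCA, its variant AGTTCA, the variant GGGTCA and lastly GGTTCA were searched on both strands in the 300 bases around each RefSeq gene start (250 before, 50 after), in the pairs with 5, 2 and 1 bases between them. A pair 5 bases apart was found in 0.0974% of 32851 such windows, 2 apart in 0.268% and 1 apart in 0.222%. Of the windows matched to 7 of the 8 members (2 for Aldh1a1, 3 for Dhrs3, 1 for Crabp1, 4 for Rara, 1 for Rarb, 2 for Rxra and 2 for Rxrg), only that of Rarb held a pair, 5 bases apart. It is shown because Rarb is itself a classical target of retinoic acid, with the 2 units in capitals, on the strand of the gene (chr14:16575507-16575535, minus strand, GRCm38.p6, from 59 to 31 bases before the RefSeq start).
Rarb: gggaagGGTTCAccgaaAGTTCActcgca
In the GENCODE vM21 annotation this stretch lies in an exon, within the untranslated part, of 2 of the 7 Rarb transcripts. The 2 units found, GGTTCA and AGTTCA, were among the 4 searched, so the match depends on which units were chosen. A match of letters is no measurement of binding. Rarb was carried by few cells at every stage, as given below.

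Aldh1a1 (ENSMUSG00000053279, chromosome 19 of GRCm38, 20492715 to 20643465, plus strand) was the member with the highest mean level from E15.5 on, but not at E13.5. The share of Pitx3eGFP/wt cells over 10 was 6.43% at E13.5 and 42.3% at P1, a difference of 35.9 percentage points (28.2 to 42.5), and 27.9% at P90, 14.5 points below P1 (-21.9 to -6.87). The level within the cells that carried the gene differed by stage as well. At E13.5 the 9 cells over 10 had a median RPKM of 97.4 and a highest value of 355.1, and no cell reached 1000, which allows a share of up to 2.14%. At E15.5 the median of such cells was 613 and the highest value 7962. E18.5 had the highest single value, 27287, and a median of 2837 among cells over 10. At P1, P7 and P90 these medians were 2013, 343.7 and 1184. Cells over 1000 made up 7.09% and 26.8% of the E15.5 and E18.5 cells, and 27.05%, 15.5% and 14.6% of those of P1, P7 and P90.

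A further 4.29% of cells at E13.5, and 33.6% to 56.3% at the later stages, had Aldh1a1 reads but an RPKM of 10 or less. Aldh1a1 was thus read in most cells from E15.5 on, at low level, and the shares over 10 and over 150 are the ones used. Mean RPKM was 7.80, 300.9, 1428, 1516, 648 and 696 from E13.5 to P90. Without the cells found under both ages the P1 share was 42.6% with a mean of 1580, and P1 lay 36.1 points above E13.5 (27.98 to 43.2). The P7 share was then 26 of 65 cells, but their level was lower, with a mean of 279.8, a median of 211.05 among cells over 10, and 6.15% of cells over 1000. Of the P7 cells over 150, 13 had at least 3 astrocyte markers and 21 had fewer, or 12 and 5 without the cells found under both ages. The part of the cells with astrocyte markers in the P7 level was not tested. By mean RPKM, P1 was 194.5-fold above E13.5 and P90 was 2.18-fold below P1. The neighbouring gene copy Aldh1a7, whose reads could be shared with Aldh1a1, was over 10 in 19 Pitx3eGFP/wt cells, of which 14 had Aldh1a1 over 150, and at P90 it did not exceed 5.02% of the Aldh1a1 level in any of its 8 cells. At P1 and P7, with 4 such cells each, Aldh1a1 was over 150 in 2 and 1 of them and as low as 0.916 and 0, while Aldh1a7 reached 389.7 and 161.56, so that it also occurred without Aldh1a1. With the cells found under both ages left out, 2 such cells remained at each age, of which 1 and 0 had Aldh1a1 over 150, and the highest P7 level was 72.5.

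**Figure D1:**
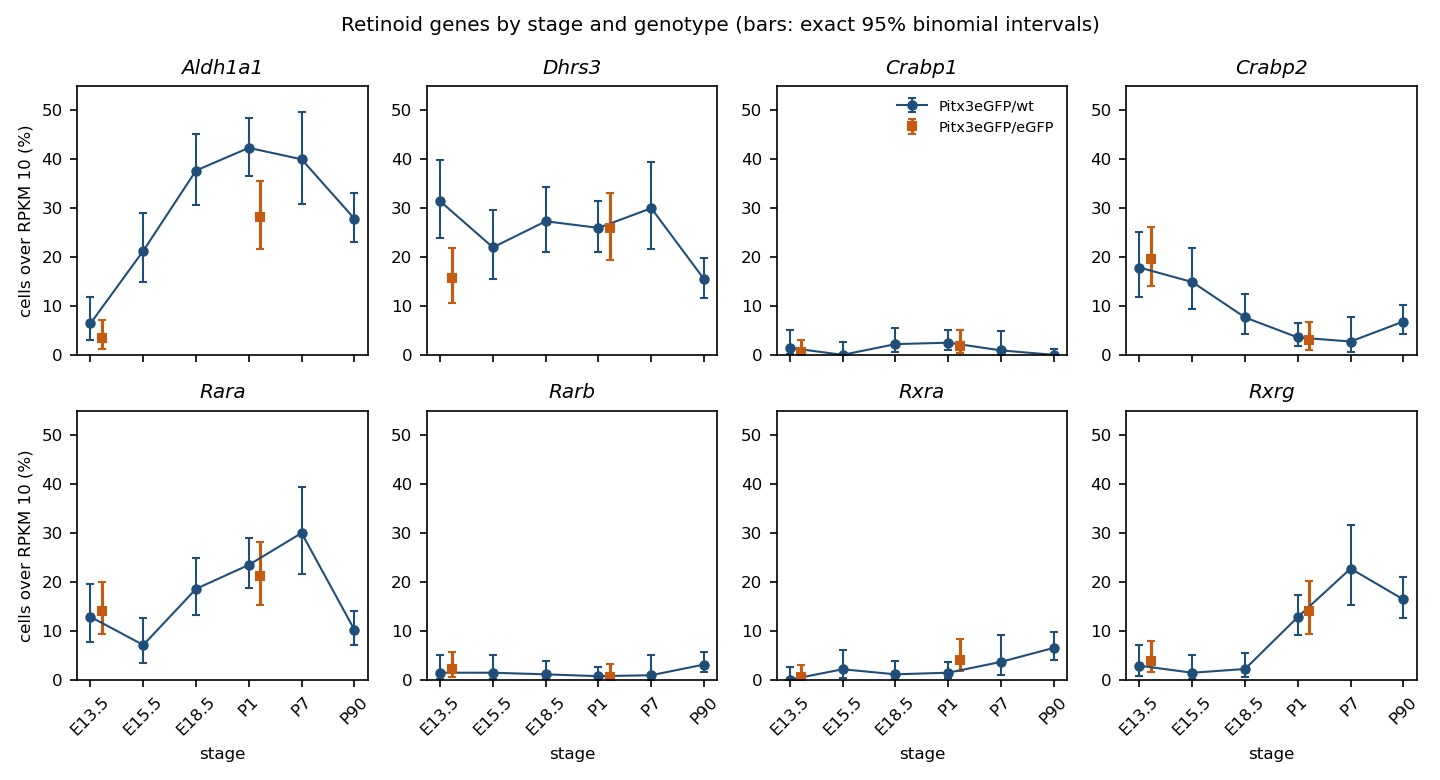
Share of cells with an RPKM over 10 (y axis, percent) for the 8 members by stage (x axis); blue circles are Pitx3eGFP/wt, orange squares Pitx3eGFP/eGFP, and bars are exact 95% intervals of counting error. Aldh1a1 went from 6.43% at E13.5 to 42.3% at P1, Crabp2 from 17.9% to 3.56%, and Crabp1 and Rarb stayed at or under 3.10% at every stage.

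At 5 of the 6 stages Aldh1a1 followed Slc6a3, which encodes the dopamine transporter. Cells with Slc6a3 over 150 are called Slc6a3-high and those with 10 or less Slc6a3-low. These classes are ranges of a level and not cell types; over all stages 63 cells lay between 100 and 200 and 28 between 5 and 15. At P1 Aldh1a1 was over 10 in 67.6% of Slc6a3-high and 26.1% of Slc6a3-low cells, a difference of 41.5 points (29.2 to 51.98), and the mean RPKM was 3190 and 445. The P1 difference was 38.8 points (25.3 to 50.3) without the cells found under both ages. At P90 the shares were 54.9% and 15.8% (difference 39.1, 26.4 to 50.9), with means of 2641 and 70.2. For the embryonic stages in order the differences were 21.1 (7.55 to 40.6), 41.3 (24.4 to 57.03) and 31.8 points (16.6 to 44.99). At P7 the shares were 51.9% and 34.8%, and the interval included 0 (-4.54 to 37.3).

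At P7 the Slc6a3-low cells held the astrocyte markers: 33 of these 66 cells had at least 3 of them, against 1 of the 27 Slc6a3-high cells. Among cells with fewer than 3 the P7 shares were 53.8% and 9.09%, a difference of 44.8 points (21.3 to 63.1). With a level over 150 in place of 10, the P7 difference over all kept cells was 29.1 points (7.91 to 48.5). The P7 values over all kept cells rested on the cells found under both ages. Without them Aldh1a1 was over 10 in 4 of 13 Slc6a3-high and 19 of 42 Slc6a3-low cells, a difference of -14.5 points (-37.8 to 15.8), and over 150 in 4 and 12 of them, a difference of 2.20 points (-21.3 to 31.4). Among those with fewer than 3 astrocyte markers it was over 10 in 4 of 12 and 0 of 17 (33.3 points, 6.49 to 60.9). On the 4 plates of P90 the difference was 52.005, 36.5, 36.01 and 6.60 points, the last on a plate with 9 Slc6a3-high cells. Not all cells with much Aldh1a1 had much Slc6a3. Of the cells with Aldh1a1 over 150, Slc6a3 was 10 or less in 29.2%, 22.95%, 23.4%, 44.1% and 25.8% from E15.5 to P90, and in 12 of 17 at P7 without the cells found under both ages. All 12 had at least 3 astrocyte markers. Among cells with fewer than 3, the P7 count was 2 of 21, or 0 of 5 without the cells found under both ages, and the P1 count 19 of 89.

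At P1 Aldh1a1 was lower in cells without Pitx3. In Pitx3eGFP/eGFP cells it was over 10 in 28.2%, against 42.3% of Pitx3eGFP/wt cells, a difference of -14.1 points (-22.7 to -4.98), and the mean RPKM of 1516 in Pitx3eGFP/wt was 6.77-fold that in Pitx3eGFP/eGFP cells. Leaving out the cells found under both ages, the difference was -14.3 points (-23.2 to -4.86) and the fold 7.05. Of the cells over 150, the median was 660 and 3064, and 7.06% and 27.05% of all cells were over 1000. With Slc6a3 over 10 the shares were 36.1% and 57.1% (-21.0 points, -36.7 to -2.83, and -19.4, -35.5 to -0.950, without the cells found under both ages), and with Slc6a3 over 150 they were 31.2% and 67.6%, the first from 16 cells. In cells with Slc6a3 of 10 or less both genotypes had 26.1% (difference 0, -10.5 to 10.5), although the mean was 214.8 and 445. Whether the genotype difference itself differed between these Slc6a3 classes was not tested. Slc6a3 itself was over 10 in 21.2% and 52.3% of cells, so the mix of cells differed between genotypes, and its part in the Aldh1a1 difference was not tested.

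All Pitx3eGFP/eGFP cells, and 94 of the Pitx3eGFP/wt cells at P1, had spike-in RNA added, and none of these 94 was found under both ages. Against these 94 cells, of which 47.9% carried Aldh1a1, the difference was -19.6 points (-31.4 to -7.47). By plate the shares were 34.1% and 22.4% for Pitx3eGFP/eGFP, and 47.9% and 39.6% for the named plate and the other cells of Pitx3eGFP/wt. Among cells with no oligodendrocyte or astrocyte marker over 10 the shares were 22.1% and 47.01% (-25.0 points, -36.7 to -11.0). At E13.5 few cells of either genotype carried the gene, 3.35% and 6.43%, and the interval included 0 (-8.71 to 1.75). There, spike-in RNA was given only to Pitx3eGFP/eGFP cells, so that it cannot be told apart from genotype, and their median depth was 753256 reads against 2357898.

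Dhrs3 (ENSMUSG00000066026, chromosome 4, 144892827 to 144928209, plus strand), the enzyme of the reverse step, was present from the first stage. Its share of Pitx3eGFP/wt cells over 10 was 31.4% at E13.5 (23.9 to 39.8). The later values were 21.99%, 27.3% and 25.98% at E15.5, E18.5 and P1, with 33 of 110 cells at P7, and 15.5% in the adult (11.7 to 19.9). Without the cells found under both ages it was 25 of 65 cells at P7 (38.5%, 26.7 to 51.4), the highest share of the 6 stages, with 12 of 26 cells that had at least 3 astrocyte markers and 13 of 39 others. P7 then lay 10.8 points above P1 (-1.63 to 24.1), or 12.48 with these cells counted once (0.337 to 25.5). Its level in the cells that carried it was highest at E13.5, with a median of 171.1 and 25 cells over 150, and had a median of 57.9 to 120.8 thereafter. The means at E13.5, P1 and P90 were 65.3, 25.6 and 11.5. By share, P1 differed from E13.5 by -5.45 points with an interval that included 0 (-14.9 to 3.49), and P90 lay 10.5 points below P1 (-17.0 to -4.04).

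Dhrs3 also followed Slc6a3, at the first stage already. At E13.5 it was over 10 in 15 of the 25 Slc6a3-high cells and in 20.2% of the Slc6a3-low cells (difference 39.8 points, 18.7 to 57.7), with mean RPKM of 166.4 and 33.5. For E15.5 and E18.5 the differences were 24.3 (7.87 to 41.1) and 28.8 points (15.6 to 41.03), for P1 18.02 (6.94 to 28.9; 17.6, 5.26 to 29.4, without the cells found under both ages) and for P90 36.4 (24.9 to 48.2). At P90 the shares were 42.3% and 5.88%, and the 4 plates gave 21.6, 39.7, 49.5 and 52.4 points. At P7 the interval included 0 (33.3% and 25.8%), and among cells with fewer than 3 astrocyte markers the shares were 30.8% and 12.1% (difference 18.6 points, -2.20 to 39.2). Once the cells found under both ages were left out, Dhrs3 was over 10 in 6 of 13 and 15 of 42 P7 cells (10.44 points, -17.04 to 38.2). At P1 the difference was 11.2 points among cells with no oligodendrocyte marker over 10, with an interval that included 0 (-2.62 to 24.8).

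In Pitx3eGFP/eGFP cells Dhrs3 was lower at E13.5, where it was over 10 in 15.6% against 31.4% (-15.8 points, -25.1 to -6.46), with a mean RPKM of 23.1 and 65.3. With every cell thinned to 100000 reads the difference was -16.1 points, and the 3 Pitx3eGFP/eGFP plates had 16.1%, 18.2% and 14.3%. Slc6a3 was over 10 in 2.79% of these cells and 25.7% of Pitx3eGFP/wt cells. Among cells with Slc6a3 of 10 or less the Dhrs3 shares were 14.9% and 20.2% (-5.25 points, -15.1 to 3.70), and only 5 Pitx3eGFP/eGFP cells were over it. At P1 the genotypes had 25.9% and 25.98% (-8.19 to 8.43).

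**Figure D2:**
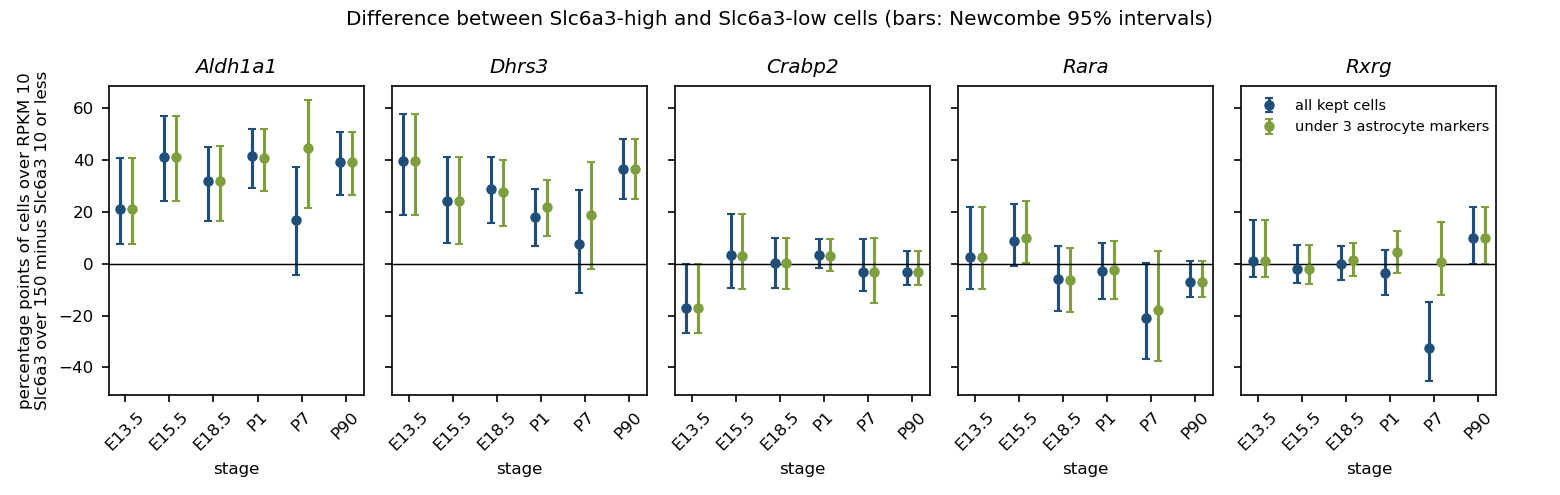
Difference in the share of cells over an RPKM of 10 between cells with Slc6a3 over 150 and with 10 or less (y axis, percentage points) by stage (x axis), for all kept Pitx3eGFP/wt cells (blue) and for those with fewer than 3 astrocyte markers (green); bars are Newcombe 95% intervals. Over all kept cells the differences of Aldh1a1 and Dhrs3 lay above 0 at every stage, with intervals that included 0 at P7, where that of Aldh1a1 was -14.5 points without the cells found under both ages, and the Rxrg difference of -32.7 points at P7 was 0.816 points among cells with fewer than 3 astrocyte markers.

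Although Aldh1a1 and Dhrs3 both followed Slc6a3, from E18.5 on most Slc6a3-high cells carried only 1 of them. Of the Slc6a3-high cells of E18.5, P1 and P7, 96 had Aldh1a1 over 150 without Dhrs3 over 10, 56 had Dhrs3 without such Aldh1a1, 21 had both and 39 had neither. With the cells found under both ages counted once, these were 88, 55, 19 and 36. Dhrs3 was over 10 in 21 of the cells with Aldh1a1 over 150 (17.9%), where its RPKM ran from 0 through a median of 0 to 523, and in 52 of the 83 cells with Aldh1a1 of 10 or less (62.7%), where it ran from 0 through a median of 36.9 to 330.8. The difference was -44.7 points (-56.0 to -31.3), and the mean was 15.6 and 62.8. Counted once, the shares were 17.8% and 64.6% (-46.8 points, -58.2 to -33.01) and the mean 11.8 and 63.6, and without the cells found under both ages they were 17.5% and 65.8% (-48.3, -59.8 to -34.05), with a highest Dhrs3 level of 119.6 in the Aldh1a1-high cells. By the same rule, 12% of 19379 entries over 10 in some of these cells had an interval below 0 and 2.11% above it (10.5% and 1.95% counted once). Only 12 cells lay between the 2 Aldh1a1 classes.

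The stages and plates gave like values. The shares in Aldh1a1-high and Aldh1a1-low cells were 15% and 62.9% at E18.5, 20.6% and 65.7% at P1, and 14.3% and 53.8% at P7, where 0 of 4 and 6 of 9 cells carried it without the cells found under both ages. The 2 plates of E18.5 had 17.4% and 68.4%, and 11.8% and 56.2%. At P1 the named plate had 22.6% and 77.8%, and the remaining cells 18.8% and 52.9%. Thinned to equal reads the difference over the 3 stages was -42.3 points, and among cells with no oligodendrocyte or astrocyte marker over 10 it was -46.4. Slc6a3 had a median of 809 and 690 in the 2 classes and the median depth was 1371322 and 1514112 reads.

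Before and after these stages the interval of this difference included 0. At E15.5 Dhrs3 was over 10 in 6 of 15 and 8 of 19 cells (-31.7 to 28.7), and at E13.5 no Slc6a3-high cell had Aldh1a1 over 150. At P90 it was over 10 in 11 of 35 and 17 of 32 cells (31.4% and 53.1%, -21.7 points, -42.2 to 1.80), and on 1 of the 4 plates in 5 of 17 and 3 of 10. In these P90 classes Slc6a3 had a median of 2452 and 679, so they also differed in Slc6a3 level. Among P90 cells with no oligodendrocyte or astrocyte marker over 10 the difference was -37.8 points (-58.3 to -10.03). In Slc6a3-low cells of E18.5 to P7 the Dhrs3 shares were 21.6% of 51 cells with Aldh1a1 over 150 and 14.8% of those with 10 or less, the cells between these levels left out (6.79 points, -3.84 to 20.5, and 8.49, -3.55 to 23.5, without the cells found under both ages). In Pitx3eGFP/eGFP cells of P1 with Slc6a3 over 10, they were 36.4% of 11 and 47.8% of 23 cells (-11.5 points, -40.1 to 22.4), and in Pitx3eGFP/wt cells of the same stage and Slc6a3 range 18.1% of 72 and 53.97% of 63 cells (-35.9 points, -49.7 to -19.9). Whether the difference itself differed between stages or genotypes was not tested.

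Among all entries, 3.29% had a mean at least 2-fold lower and 6.60% one at least 2-fold higher in the Aldh1a1-high than in the Aldh1a1-low Slc6a3-high cells of E18.5 to P7. Of the 3 members other than Aldh1a1 with a mean of at least 5, Dhrs3 was lower, 4.04-fold (5.38-fold with the cells found under both ages counted once), Crabp2 higher and Rara neither. Without the cells found under both ages Rxrg also reached a mean of 5 and was called higher, with 5.22 against 2.51, and Dhrs3 was 7.89-fold lower. The mean of Crabp2 came from 8.55% against 2.41% of cells over 10. Of 44 further genes of the retinoid pathway over 10 in some of these cells, 3 had shares whose interval lay below 0 and none above it, against the 12% and 2.11% of all entries given above: Rdh11, a retinaldehyde reductase, with 41.03% and 59.04%, Rxrb with 35.04% and 49.4%, and Cyp26b1, which breaks down retinoic acid, with 0.855% and 8.43%. By the 2-fold rule the balance was the other way. Of 20 pathway genes with a mean of at least 5, 2 were higher and 0 lower, and 1 was higher with the cells found under both ages counted once. The mean RPKM of Rxrb was 22.2 and 21.1, while Rdh11 and Cyp26b1 had the lower mean in the Aldh1a1-high cells.

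At P90 Cyp26b1 was over 10 in 1 of 35 Aldh1a1-high and 11 of 32 Aldh1a1-low cells with high Slc6a3 (2.86% and 34.4%, difference -31.5 points, -49.0 to -13.3). Outside the Slc6a3-high cells it was rare at that stage, 0.452% of Slc6a3-low cells. Rxrg differed between the Aldh1a1 classes in the same direction, as described with the receptors, but was not rare in Slc6a3-low cells. Median Slc6a3 was 2452 in the Aldh1a1-high and 679 in the Aldh1a1-low cells, and its part in these differences was not tested. By interval, 1.97% of 16217 entries lay above 0 and 5.25% below it at P90, and of 35 pathway genes 2 lay above (Rbp4 and Aldh1a7) and 1 below (Cyp26b1). Aldh1a7 reads could be shared with Aldh1a1, which set the classes, and all 8 P90 cells with Aldh1a7 over 10 had Aldh1a1 over 1000. Its place above 0 is thus not independent of how the classes were made. The 2-fold background at P90 was 8.80% of entries higher and 8.31% lower, and of the 3 other members tested Dhrs3 and Rxrg were lower and Crabp2 higher. The Crabp2 call rests on 1 cell with an RPKM of 1107. Rbp4, a retinol carrier, was over 10 in 31.4% and 9.38% of these cells.

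**Figure D3:**
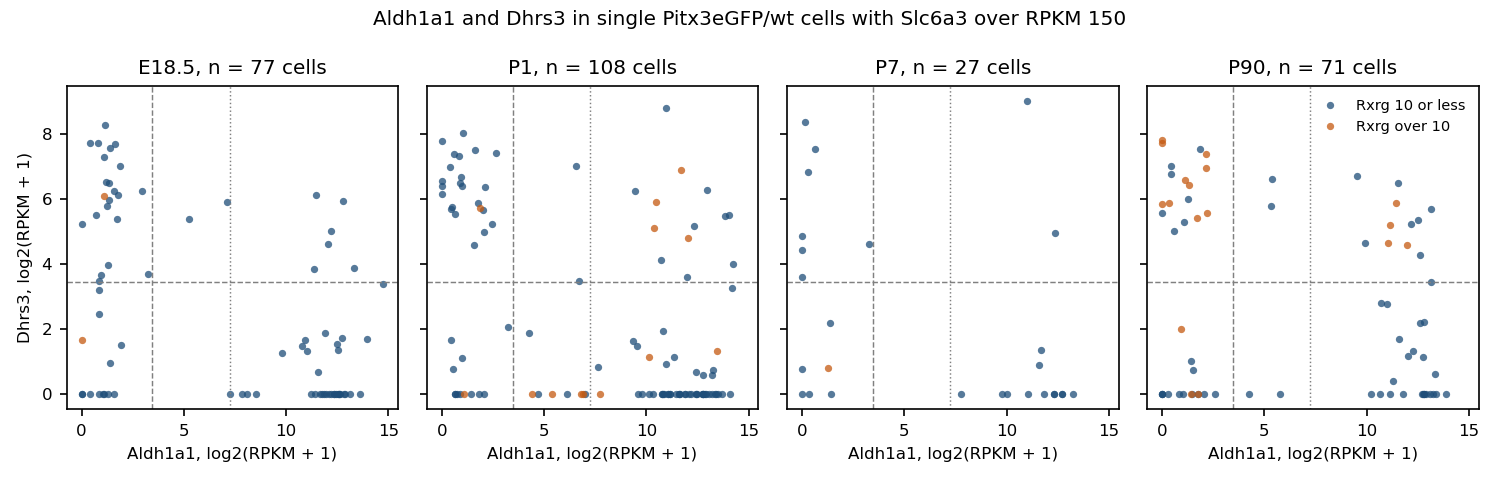
Aldh1a1 (x axis) and Dhrs3 (y axis), both as log2 of RPKM plus 1, in each Pitx3eGFP/wt cell with Slc6a3 over 150 at E18.5, P1, P7 and P90; dashed lines mark an RPKM of 10, the dotted line 150, and orange points are cells with Rxrg over 10. In the cells of E18.5 to P7, 96 had high Aldh1a1 only, 56 Dhrs3 only and 21 both, and at P90 13 of 32 Aldh1a1-low cells carried Rxrg; cells found under both ages are drawn at each.

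Of the retinoic acid binding proteins, Crabp1 (ENSMUSG00000032291, chromosome 9, 54764748 to 54773110, plus strand) was over 10 in 14 of 1178 Pitx3eGFP/wt cells. No cell carried it at E15.5 or P90, which allows shares of up to 2.13% and 0.929%. Crabp2 (ENSMUSG00000004885, chromosome 3, 87948666 to 87953376, plus strand) was a gene of the early stages. Its shares over the embryonic stages in order were 17.9% (11.9 to 25.2), 14.9% and 7.65%, followed by 3.56%, 2.73% and 6.81% of P1, P7 and P90 cells (2 of 65 at P7 without the cells found under both ages). P1 lay 14.3 points below E13.5 (-21.7 to -8.13), with a mean RPKM of 26.998 and 1.92 in the earlier and the later stage.

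At E13.5 Crabp2 went against Slc6a3: 1 of 25 Slc6a3-high cells and 22 Slc6a3-low cells carried it (4.0% and 21.2%, -17.2 points, -26.6 to -0.208). From E15.5 on the intervals included 0. The E13.5 shares of the 2 genotypes were 19.6% in Pitx3eGFP/eGFP and 17.9% in Pitx3eGFP/wt cells, and those of P1 2.94% and 3.56%, with intervals that included 0. Fabp5, another carrier of retinoic acid, was over 10 in 91.95% to 100% of Pitx3eGFP/wt cells at every stage.

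Rara (ENSMUSG00000037992, chromosome 11, 98927818 to 98974942, plus strand) was the RAR gene most cells carried. Its share was 12.9%, 7.09% and 18.6% at the 3 embryonic stages, 23.5% at P1 (18.7 to 28.9), 33 of 110 cells at P7 (21.6 to 39.5) and 10.2% in the adult (7.14 to 14.05). P90 lay 13.3 points below P1 (-19.3 to -7.31). Levels were low throughout: the highest cell had an RPKM of 89.4 at E13.5, 180 at P1 and 58.9 at P90, and only 3 Pitx3eGFP/wt cells, or 2 with the cells found under both ages counted once, were over 150. Rara did not separate the Slc6a3 classes beyond counting error at any stage. The widest gap was at P7, with 18.5% of Slc6a3-high and 39.4% of Slc6a3-low cells (-20.9 points, -36.8 to 0.317). Among all P7 cells with fewer than 3 astrocyte markers the share was 22.7%. Among P7 cells of a single age Rara was over 10 in 22 of 65, with a gap of -19.8 points between the Slc6a3 classes (-40.9 to 10.7). The genotypes had 13.97% and 12.9% at E13.5 and 21.2% and 23.5% at P1.

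Rarb (ENSMUSG00000017491, chromosome 14, 16430839 to 16819156, minus strand) was over 10 in 19 Pitx3eGFP/wt cells, 10 of them at P90 (3.10%, 1.49 to 5.62), and no cell was over 58.6. Its exons overlap those of other genes on the same stretch, so these few reads are uncertain. Rarg, the remaining RAR gene, had 0 of 140 E13.5 cells over 10, which allows a share of up to 2.14%, and 6.19% at P90.

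Rxra (ENSMUSG00000015846, chromosome 2, 27676440 to 27762957, plus strand) was carried by no E13.5 cell, which allows a share of up to 2.14%, and by 1.42% of P1 and 6.50% of P90 cells, 5.08 points more (1.99 to 8.43). At P1 it was over 10 in 4.12% of Pitx3eGFP/eGFP and 1.42% of Pitx3eGFP/wt cells (2.69 points, -0.338 to 6.92). Rxrb was the RXR gene most cells carried, 23.4% to 46.4% by stage.

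Rxrg (ENSMUSG00000015843, chromosome 1, 167598384 to 167639623, plus strand) was a gene of the postnatal stages. Before birth it was over 10 in 2.86%, 1.42% and 2.19% of cells by stage. P1 had 12.8% (9.14 to 17.3), P7 22.7% (15.3 to 31.7) and P90 16.4% (12.5 to 20.9), with a mean RPKM of 8.98, 48.6 and 8.65 at the last 3. At P7 the gene lay in Slc6a3-low cells, 24 of 66 against 1 of 27 Slc6a3-high cells (36.4% and 3.70%, -32.7 points, -45.1 to -14.7). It lay in cells with astrocyte markers as well: 23 of 35 P7 cells with at least 3 of them carried Rxrg (65.7%) and 2 of the other 75 did (2.67%). Among cells with fewer than 3, the P7 shares by Slc6a3 were 3.85% and 3.03%. Without the cells found under both ages the P7 share was 24.6% and the mean 72.2, and Rxrg was over 10 in 0 of 13 Slc6a3-high and 16 of 42 Slc6a3-low cells (-38.1 points, -53.2 to -11.8). All 16 of these were among the 26 with at least 3 astrocyte markers. The P1 share was then 11.1%.

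P90 held no cell with 3 astrocyte markers, and there Rxrg was carried by 53 cells. It was over 10 in 23.9% of Slc6a3-high and 14.03% of Slc6a3-low cells (9.92 points, 0.0204 to 21.7), and within the Slc6a3-high cells in 4 of 35 with high Aldh1a1 and 13 of 32 with little Aldh1a1 (11.4% and 40.6%, -29.2 points, -47.6 to -8.24). Each of the 4 plates had the higher share in the Aldh1a1-low cells (2 of 17 and 5 of 10, 1 of 10 and 3 of 8, 1 of 6 and 2 of 7, 0 of 2 and 3 of 7). These Aldh1a1 classes also differed in median Slc6a3 at P90, as given above. Rxrg and Dhrs3 were both over 10 in 14 of the 71 Slc6a3-high cells of P90. At E18.5 to P7 the Rxrg shares were 5.98% and 6.02%, with an interval of the difference from -7.97 to 6.74 points (-4.66 to 10.7 without the cells found under both ages).

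Between genotypes the Rxrg share at P1 was 14.1% and 12.8% (1.31 points, -4.96 to 8.23), while its mean RPKM was 22.4 in Pitx3eGFP/eGFP and 8.98 in Pitx3eGFP/wt cells. The Pitx3eGFP/wt mean was 7.13 without the cells found under both ages, and the shares differed by 3.05 points (-3.38 to 9.98). Among cells with fewer than 3 astrocyte markers the means were 7.12 and 4.48. At E13.5 the shares were 3.91% and 2.86%.

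**Figure D4:**
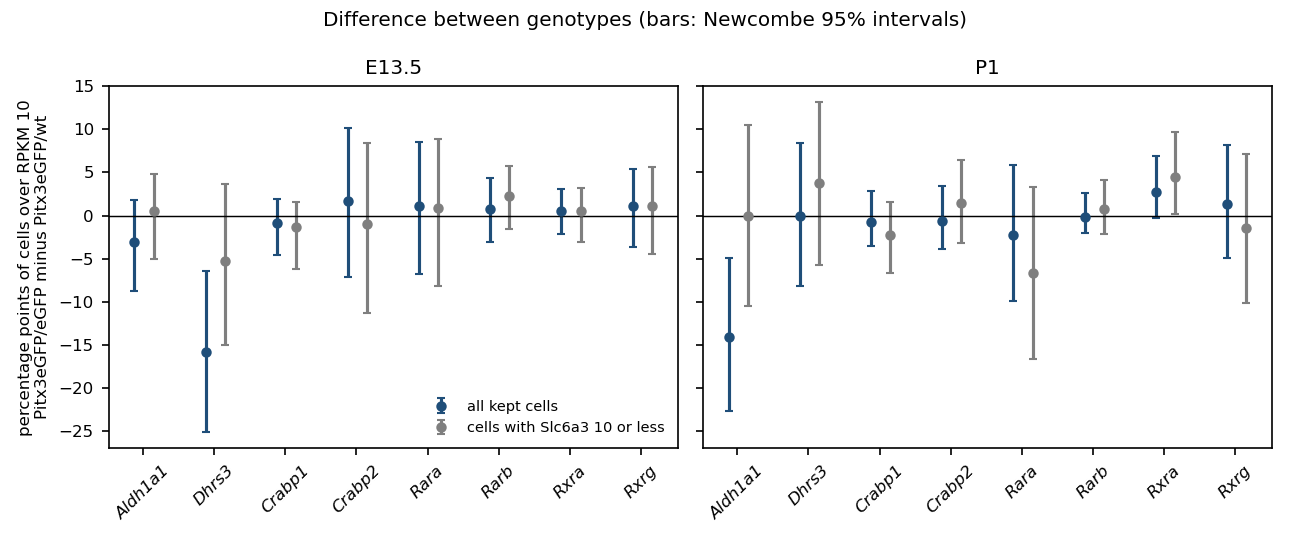
Difference in the share of cells over an RPKM of 10 between Pitx3eGFP/eGFP and Pitx3eGFP/wt cells (y axis, percentage points) for the 8 members (x axis) at E13.5 and P1, over all kept cells (blue) and cells with Slc6a3 of 10 or less (grey); bars are Newcombe 95% intervals. Over all kept cells the intervals of Dhrs3 at E13.5 (-15.8 points) and Aldh1a1 at P1 (-14.1) lay below 0.

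The members were set beside glial markers at P1 and P7 in Pitx3eGFP/wt cells. Rxrg was over 10 in 62.7% of the 59 kept cells with at least 3 astrocyte markers (49.1 to 74.96, mean RPKM 112.3) and in 7.50% of the 160 cells with no astrocyte or oligodendrocyte marker (3.94 to 12.7, mean 3.15). Dhrs3 had 49.2% and 18.8%, and Rara 38.98% and 24.4%. Aldh1a1 had like shares, 47.5% and 45.6%, at unlike levels, a mean of 371.99 and 1740. Crabp1, Crabp2, Rarb and Rxra were over 10 in at most 3.39% of the 59 cells. Th was over 10 in 20.3% of the 59 and 76.2% of the 160 cells. With the cells found under both ages counted once, cells with at least 3 astrocyte markers numbered 50, of which 30 carried Rxrg, 26 Dhrs3, 20 Rara and 27 Aldh1a1, and the shares among cells with no glial marker were 7.80%, 19.9%, 24.1% and 44.7%. Without them, Rxrg was over 10 in 22 of 41 cells and in 8.26%, and Aldh1a1 in 26 of 41 and 42.98%. Without cells carrying 3 or more astrocyte markers, the P7 numbers were 2 of 75 cells for Rxrg, 18 for Dhrs3, 17 for Rara and 24 for Aldh1a1, and the P1 shares of Rxrg and Aldh1a1 were 8.56% and 43.2%. Of the 39 such P7 cells of a single age, 0 carried Rxrg, 13 Dhrs3, 9 Rara and 7 Aldh1a1.

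**Figure D5:**
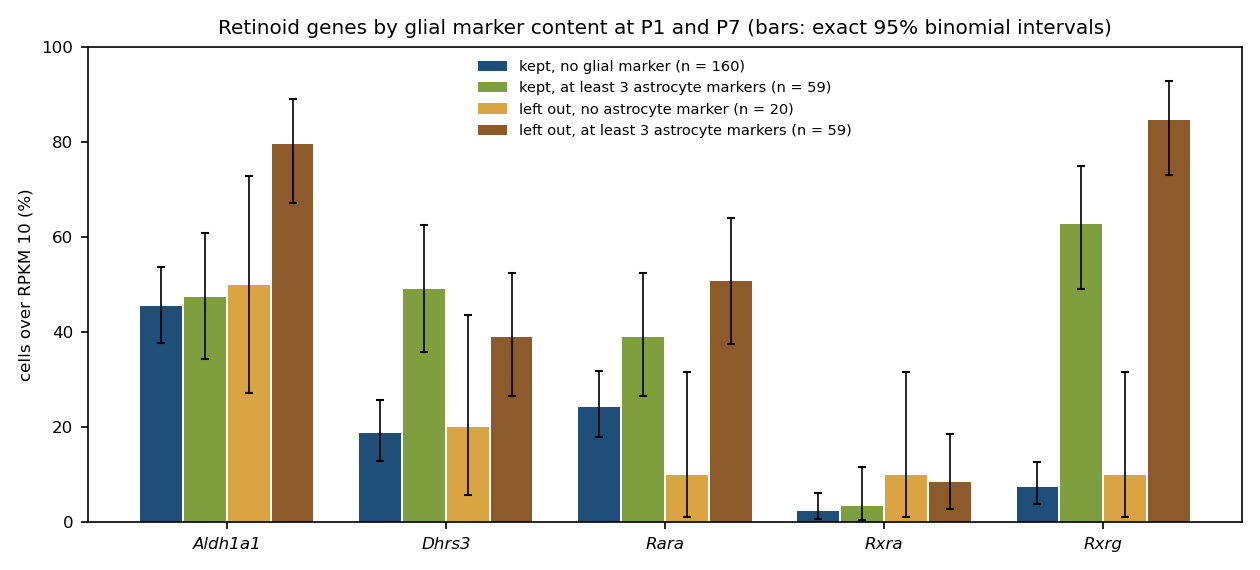
Share of Pitx3eGFP/wt cells of P1 and P7 over an RPKM of 10 (y axis, percent) for 5 members (x axis), in kept cells with no glial marker, kept cells with at least 3 astrocyte markers, and cells left out for their oligodendrocyte markers with no or with at least 3 astrocyte markers; bars start at 0 and lines are exact 95% intervals. Rxrg was over 10 in 7.50%, 62.7%, 10% and 84.7% of these cells in this order, with cells found under both ages counted at each.

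Few cells carried Aldh1a1, an RAR and an RXR of the list together, which is called the whole path here and leaves out Rxrb. An RAR (Rara or Rarb) and an RXR of the list (Rxra or Rxrg) were both over 10 in at most 1.43% of Pitx3eGFP/wt cells before birth, and in 4.27%, 13.6% and 2.79% at P1, P7 and P90. Aldh1a1, an RAR and an RXR were together over 10 in no cell before P1, in 1.78% of cells at P1, in 11 of 110 cells at P7 and in 0.619% at P90. In cells of a single age these 2 values were 2.98% and 1.70% at P1 and both 10 of 65 cells at P7. At P7 most of these cells carried astrocyte markers. An RAR and an RXR were over 10 in 12 of 35 cells with at least 3 such markers and 3 of 75 with fewer, and the whole path in 9 of 35 and 2 of 75. Among single-age P7 cells both values were 9 of 26 and 1 of 39. Cells in which no member was over 10 made up 43.6%, 26.3% and 41.5% at E13.5, P1 and P90. A level under the threshold in a single cell can also come from reads not caught, and Rxrb is not counted here. Taken singly, an RAR was over 10 in 12.7% and an RXR of the list in 21.1% of P90 cells. Whether members met in a cell more or less often than their single shares give was not tested. Over cells, Aldh1a1 and Slc6a3 had Pearson correlations of log2 levels of 0.48, 0.35, 0.42, 0.30 and 0.53 from E15.5 to P90 (1038 cells, which share plates and depth within a stage). Dhrs3 and Slc6a3 had 0.40, 0.30, 0.29, 0.18, 0.07 and 0.43 from E13.5 to P90 (1178 cells), and Aldh1a1 and Dhrs3 0.15, -0.19, -0.16, -0.09 and 0.16 from E15.5. In P7 cells of a single age these 3 values were -0.03, 0.11 and -0.02.

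The members were read against all entries by the fold of their mean RPKM, with differences of at least 2-fold counted where the mean of 1 of the groups was at least 5. Between E13.5 and P1, 16% of 11085 entries were higher and 7.31% lower at P1. Of the 5 members tested, Aldh1a1 and Rxrg (5.14-fold) were higher and Dhrs3 (2.55-fold) and Crabp2 (14.1-fold) lower. From P1 to P90, 10.9% were higher and 18.9% lower, and of 5 members Crabp2 was higher (2.84-fold) and Aldh1a1, Dhrs3 (2.23-fold) and Rara (3.63-fold) were lower. The Crabp2 mean at P90 rests on the cell of 1107 named above. Among cells with fewer than 3 astrocyte markers, Rxrg was not called between E13.5 and P1, nor Dhrs3 between P1 and P90, where the latter was also not called among cells with no oligodendrocyte marker. With reads pooled over cells, Aldh1a1 and Crabp2 were not called between P1 and P90. In Pitx3eGFP/eGFP cells 3.04% were higher and 3.51% lower at E13.5, where Aldh1a1 (2.33-fold) and Dhrs3 (2.83-fold) of 4 members were lower. At P1 3.36% were higher and 2.43% lower, with Aldh1a1 6.77-fold lower and Rxrg 2.50-fold higher of 4. With pooled reads Aldh1a1 was not called at E13.5 nor Rxrg at P1, and Rxrg was also not called at P1 among cells with fewer than 3 astrocyte markers. The members called in the comparisons with P1 were the same when the cells found under both ages were left out.

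For Slc6a3-high over Slc6a3-low cells, 3.68% of entries were higher and 5.75% lower at E18.5, 2.88% and 10.1% at P1, and 5.01% and 8.38% at P90. At E18.5 Aldh1a1 (7.73-fold) and Dhrs3 (3.51-fold) of 5 members were higher and Rxrg lower, the last from 2 cells over 10 in each class, of which 1 Slc6a3-low cell with astrocyte markers reached 465. At P1 Aldh1a1 (7.17-fold) was higher and Crabp1 lower of 5, Crabp1 from 7 cells of that stage over 10. At P90 all 4 members tested were higher, Aldh1a1 37.6-fold, Dhrs3 11.99-fold, Rxrg 2.303-fold and Crabp2 7.34-fold, the last again by 1 cell.

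The 56 other listed genes of the pathway were counted by the same rule, to be read against the shares of all entries just given. Of those with a mean of at least 5, 2 of 24 were higher and 4 lower at P1 than at E13.5, and 3 and 8 of 24 at P90 than at P1. Between genotypes 1 and 1 of 22 were higher and lower at E13.5, and 0 and 1 of 22 at P1. With Slc6a3, 1 and 1 of 21 differed at E18.5, 2 and 3 of 25 at P1 and 4 and 3 of 23 at P90. Their median log2 fold was -0.24 for P1 over E13.5 and -0.48 for P90 over P1, where that of all entries was -0.01 and -0.15. Rbp4 was 5.74-fold and Nr4a1, an RXR partner that also answers to neuronal activity, 6.23-fold higher at P90 than at P1, and Fabp5 3.89-fold and Meis1 5.01-fold lower. Meis2 was 7.43-fold higher in Pitx3eGFP/eGFP cells at E13.5. In Slc6a3-high cells Cyp26b1 was 49.1-fold higher at P90, while Aldh1a3, a further retinoic acid making enzyme, was over 10 in 13.1% of Slc6a3-low and in none of the 71 Slc6a3-high cells of P90.

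The genes whose levels over cells were most like a member's were ranked by the mean over stages of their Pearson correlation. For Aldh1a1 (5 stages, 1038 cells, 12108 entries) they were Grp with 0.47, Chrna6 with 0.44, Slc6a3 with 0.41, and Th and Chrnb3 with 0.38. For Dhrs3 (6 stages, 1178 cells) they were Tmem255a with 0.34, Slc10a4 with 0.31, Slc6a3 with 0.28, Dlk1 with 0.27 and Zfhx3 with 0.26. For Rxrg (P1, P7 and P90, 714 cells) Mmd2 had 0.40, Id1, Slc15a2 and Jam2 had 0.38 and Id3 had 0.37, with values by stage from -0.05 to 0.72. At P7 Rxrg lay mostly in cells with at least 3 astrocyte markers, as given above, and this ranking was not made without them. The highest value for Crabp2 and for Rara was 0.19. The order changed without the cells found under both ages: Aldh1a1 had Grp with 0.40, Neurod6, Chrna6 and Slc1a2 with 0.38 and Kcnab1 with 0.36, and no longer Slc6a3, Th or Chrnb3. For Dhrs3 Gucy2c took the place of Zfhx3, and Rxrg, then ranked at P1 and P90 alone, kept only Slc15a2 of its 5, with 0.21. Rxra could be ranked at P90 alone, where its nearest gene, Trib1, had 0.26. These are descriptions of cells that share plates and depth.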

How the data were processed

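Single cells were sequenced with Smart-seq2 and 1 table per cell was analysed. The authors aligned reads to mm10 with STAR, kept uniquely mapping reads and deposited for each entry a read count, which was not normalized. The RPKM values were made by the authors with rpkmforgenes and Ensembl gene models. Spike-in entries are not among the values used here.

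A cell had to have more than 100000 reads, and 15% (3.4% at P90) of the 31526 entries that were read in some cell had to be detected in it. These limits follow the methods, whose gene total is not given in the sources used here. Their 4 further limits, on uniquely mapping reads, mismatches, exon mapping and mapping to the 3' end, were not applied here, so that 1649 of 1699 cells passed and the cells kept are not the same set as the study's. Cells with at least 3 of 10 oligodendrocyte lineage markers over an RPKM of 10 were left out (122 cells), a rule per cell in place of clusters. This kept 140, 141, 183, 281, 110 and 323 Pitx3eGFP/wt cells from E13.5 to P90, and 179 and 170 Pitx3eGFP/eGFP cells at E13.5 and P1. Of these, 25, 38, 77, 108, 27 and 71 Pitx3eGFP/wt cells had Slc6a3 over 150, and 104, 92, 79, 134, 66 and 221 had 10 or less. No doublet caller was run. Cells labelled P1 and P7 with a correlation over 0.9 (57 pairs) were taken as the same cell and kept as labelled. Values were repeated without them and with each counted once, a step added after values had been seen. Kept cells with at least 3 astrocyte and at least 4 of 5 neuron markers numbered 7 at P1, 6 at P7 and 12 in Pitx3eGFP/eGFP at P1.

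Groups come from the labels for age and genotype. No test was made, since each group is 1 sample. Shares have exact Clopper-Pearson 95% intervals, differences Newcombe intervals, and a share of 0 is given the limit of 3 counts. Entries were called at a 2-fold difference of mean RPKM where either mean was at least 5. This rule was checked on simulated data only with changes larger than 2-fold and groups the size of the P1 Slc6a3 classes. The check does not cover changes near 2-fold or smaller groups. Likeness is the Pearson correlation of log2 RPKM with a pseudocount of 1, and depth was equalised by drawing 100000 reads a cell (seed 1). Named are the 8 members, listed pathway genes past the fold (up to 5 a direction) or with a role beside a member, and the 5 entries most like a member. The members and lists were chosen with earlier results of these data known, and the look at glial markers, and at other pathway genes within Slc6a3-high cells, was added after values had been seen. Coordinates are from GENCODE vM21 on GRCm38, the build that mm10 names, and promoter sequence from RefSeq on GRCm38.p6. Python 3.11.15 with numpy 2.4.6, pandas 2.3.3, scipy 1.17.1 and matplotlib 3.10.9 was used.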

Additional observations from a re-analysis of the deposited data

Results flagged for a closer look

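Cells left out for their oligodendrocyte markers stand outside the comparisons, and 2 members were frequent in them. At P1 and P7, over both genotypes, Aldh1a1 passed an RPKM of 10 in 58.3% of the cells left out (48.7 to 67.4) and in 37.6% of those kept. Rxrg was over 10 in 53.04% of the cells left out (43.5 to 62.4) and in 15.2% of those kept. Among all cells left out, Rxrg was over 10 in 7.41% of the 27 with no astrocyte marker and in 84.8% of the 66 with at least 3, and Aldh1a1 in 44.4% and 75.8%. Without cells found under both P1 and P7, the values at these stages were 59.6% and 37.02% for Aldh1a1, and 59.6% and 14.04% for Rxrg. The part of either marker list in these values was not tested.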

How the results depend on the processing

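No paired analysis was possible because the results come from no test. The numbers in the titles name cells, and in 57 cases the same number at P1 and P7 was read as a single cell under 2 labels. For 70 differences between shares, 765 alternative values were computed, of which 748 stayed within the error of the main value and 16 moved beyond it. The remaining 1 changed sign where the main interval left out 0: with an RPKM threshold of 50 in place of 10, Rara at P1 minus E13.5 was -0.371 points. Changes of sign where the main interval included 0 were not counted apart. With a threshold of 1, the Aldh1a1 difference was 65.1 points for P1 minus E13.5, -33.9 for genotype at P1 and 12.8 for Slc6a3 at P1. With a threshold of 50, that of Dhrs3 for Slc6a3 at P90 was 23.1. Counts of members called by fold were small and moved in 13 of 61 alternatives. For genotype at P1 the 2 members called became 1 with pooled reads, 1 without cells carrying an oligodendrocyte marker and 1 without those carrying 3 astrocyte markers (Aldh1a1 remained), and 4 with a mean of at least 1 or no filter. For Slc6a3 at P1 the 2 became 4 at 1.5-fold, with a mean of at least 1 and with no filter. Genotype at E13.5 gave 4 with a mean of at least 1 and 5 with no filter, P90 over P1 7 with no filter, and Slc6a3 at E18.5 5 with no filter and 1 without cells carrying an oligodendrocyte marker. The cause was not tested. Such settings can also change the share of all entries called, which is not given here, so these counts are no result about the members. Of the 5 entries most like a member, a Spearman ranking shared 4 for Aldh1a1, 3 for Dhrs3 and Rara, 2 for Rxrg, 1 for Crabp2 and 0 for Rxra. Settings on glial markers, on Aldh1a1 classes and on cells found under both P1 and P7 were chosen after seeing the data. The 43 values without these last cells were 39 differences and 4 counts of members. None of these differences, nor the 7 with the cells counted once, left the error of the main value, which holds most of the same cells. The 4 counts stayed within 1.5-fold of the main count. P7 by itself was not among these values. Rare members (Crabp1, Rarb, Rxra) rest on 34 or fewer Pitx3eGFP/wt cells each, and with 1 sample a group the spread between animals is unknown.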

Other observations

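Some other genes of the path were carried by few cells, counted here with cells found under both P1 and P7 at each age. Of the remaining retinoic acid making enzymes, Aldh1a2 was over 10 in 4 Pitx3eGFP/wt cells in all, and Aldh1a3 in 6, 7, 3 and 29 cells of E18.5, P1, P7 and P90. Stra6, the receptor that takes up retinol, was over 10 in 2, 2, 4, 14, 7 and 2 cells from E13.5 to P90. Rdh10, which makes retinaldehyde from retinol, was over 10 in at most 11 of 110 cells, the P7 value, and in 3.55% at E15.5, the lowest. Cyp26b1 was over 10 in no cell at E13.5, which allows a share of up to 2.14%, and in 1, 7, 15, 7 and 14 cells at the later stages. Without the cells found under both ages, the P7 counts of 65 cells were 1 for Aldh1a3, 5 for Stra6, 8 for Rdh10 and 4 for Cyp26b1.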
